A study of Saccharomyces cerevisiae with 12 samples.

Results

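RNA sequencing libraries labelled esa1Δ epl1Δ sds3Δ were compared with libraries labelled esa1Δ sds3Δ, so that the groups differ by the label epl1Δ. Each group had 3 libraries, 6 of the 12 in the series, and the test covered the 5956 of 7126 features whose RPKM averaged 1 or more across the series. RPKM is the number of reads in a feature relative to its length and to a read total of its library. The budding yeast strains, all MATα W303, were grown in SC medium at 24 °C to mid-log phase. The strain labelled esa1Δ sds3Δ, called double-labelled here, has the genotype label esa1Δ::HIS3 sds3Δ::natMX. The strain labelled esa1Δ epl1Δ sds3Δ, called triple-labelled, has the same pair of deletions and epl1Δ::kanMX in its label. The other 6 libraries were 3 of wild type, a W303 strain labelled with mutant alleles of ADE2, CAN1, HIS3, LEU2, TRP1 and URA3, and 3 labelled epl1Δ sds3Δ (epl1Δ::kanMX sds3Δ::natMX). Both groups compared share the deletion label for SDS3, and no libraries with sds3Δ alone were analysed here. The labels call the 3 libraries of a group biological replicates and do not say whether the strain of a group was 1 clone. The p-values of the main test therefore measure the spread between libraries of a group, shared over all 4 groups with wild type.

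NuA4 is a histone acetyltransferase that acetylates histone H4 and H2A at active genes. Esa1 is its catalytic subunit, and Epl1 holds Esa1 in the small assembly known as piccolo NuA4 and joins that assembly to the rest of the complex. Both subunits are essential in otherwise wild-type yeast, and loss of Sds3, a subunit of the Rpd3L histone deacetylase, allows growth without them. The comparison asks how RNA levels differ when the label for loss of the scaffold gene is added to that for loss of the enzyme gene.

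Of the 5956 features, 3 were called lower and 0 were called higher in the triple-labelled libraries, which is 0.0504% (limma on log2(scaled RPKM + 1), Benjamini-Hochberg adjusted p under 0.05). They were EPL1 itself, ATG19, which encodes the receptor that carries selected enzymes to the vacuole, and LEU1, which encodes isopropylmalate isomerase of leucine synthesis. At an unadjusted p under 0.05, 194 features were higher and 183 were lower, together 377 or 6.33% of those tested. The genes with the next smallest p-values after the called ones were LEU2, BAT2, OAC1, SPS100 and BAT1, and 4 of these 5 take part in the synthesis of branched-chain amino acids or in the transport that serves it. None of these 5 passed the test, and they were singled out after their values were seen.

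Sequence before the leucine genes is shown first, because several genes at the head of this comparison belong to the set that the activator Leu3 is known to bind through paired CCGG blocks. The motif CCGGNNCCGG, which reads the same on both strands, was searched in 500 bases before and 50 after the start codon, and this motif and window were chosen after LEU1 was seen among the called genes. The 15 genes searched were 11 of branched-chain synthesis and 4 others, OAC1, BAP2, GDH1 and MAE1, that were picked because Leu3 is known to regulate them. Of these, 7 held a match, BAP2 and GDH1 among them, so the share is in part set by how the genes were picked. OAC1, BAT2 and ILV3, whose p-values were also among the smallest of the comparison, held none. The motif was found in 17 of 5515 promoters of protein-coding genes, or 0.308%. With 250 bases before the start codon, 3 of the 15 and 8 of the 5515 (0.145%) held one. The 60 bases around each of the 7 matches are printed 5′ to 3′ on the strand of the gene, from the R64 genome of RefSeq, with the match in capitals.
LEU1 (chrVII:478835-478894, minus strand): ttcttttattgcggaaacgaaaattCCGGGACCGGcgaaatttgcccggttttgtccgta
LEU2 (chrIII:91101-91160, plus strand): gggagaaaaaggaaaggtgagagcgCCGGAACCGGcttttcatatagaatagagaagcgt
BAT1 (chrVIII:517360-517419, plus strand): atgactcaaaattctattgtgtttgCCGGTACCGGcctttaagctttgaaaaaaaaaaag
ILV2 (chrXIII:483591-483650, plus strand): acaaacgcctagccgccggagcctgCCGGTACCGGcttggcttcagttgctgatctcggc
ILV5 (chrXII:839596-839655, minus strand): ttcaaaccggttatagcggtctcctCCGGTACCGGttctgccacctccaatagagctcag
BAP2 (chrII:376042-376101, minus strand): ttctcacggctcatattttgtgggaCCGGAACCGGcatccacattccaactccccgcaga
GDH1 (chrXV:1043412-1043471, minus strand): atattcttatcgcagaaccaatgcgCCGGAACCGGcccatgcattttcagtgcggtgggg
The match began at position -217 before LEU1, -198 before LEU2, -147 before BAT1, -468 before ILV2, -377 before ILV5, -386 before BAP2 and -404 before GDH1, where -1 is the base before the start codon. A match of letters is a description of the sequence and was not tested as a binding site.

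EPL1 (YFL024C, chromosome VI, 87847 to 90345, minus strand) was measured at 4.86, 2.92 and 3.34 scaled RPKM in double-labelled replicates 1, 2 and 3, and at 0.574, 0.385 and 0.289 in the triple-labelled ones. All 3 triple-labelled libraries lay below all double-labelled ones, and the triple-labelled mean was 11.2% of the double-labelled mean. The log2 difference on the log2(RPKM + 1) scale was -1.72 with a standard error (SE) of 0.21 and an adjusted p of 0.0045. It was -2.89 with a pseudocount of 0.1, -0.68 with a pseudocount of 5 and -3.18 with voom on recovered reads, and called in each. The numbers behind these values were 106, 62 and 68 reads against 13, 8 and 10 reads, so a few reads were still assigned to the gene in the libraries labelled epl1Δ. In the libraries labelled epl1Δ sds3Δ, EPL1 had 5, 4 and 4 reads. At wild type, the level was 3.55, 2.20 and 3.05 RPKM, and the double-labelled libraries did not pass the test against it (log2 difference 0.25, adjusted p = 0.32).

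ESA1 (YOR244W), deleted by label in both groups, had 2, 2 and 3 reads in the double-labelled libraries and 2, 1 and 3 reads in the triple-labelled ones. Wild type had 256, 181 and 310 reads. HIS3, the marker that replaced ESA1, stood at 39.7, 39.1 and 41.8 RPKM in the double-labelled libraries and at 37.1, 43.6 and 42.9 in the triple-labelled ones. Its log2 difference was 0.03 (95% interval -0.34 to 0.40), and wild type lay between 11.2 and 18.9 RPKM. SDS3 is deleted by label in both groups, yet reads were assigned to it in every library. The double-labelled libraries had 5.004, 5.39 and 6.73 RPKM of SDS3, the triple-labelled ones 4.04, 7.95 and 5.64, and wild type 9.02, 8.57 and 9.42. Against wild type, SDS3 was lower in both groups (log2 difference -0.58, limma adjusted p = 0.011 in each). How much of the gene was deleted is not given in the labels. The labels are therefore used as names throughout, and the SDS3 level did not separate the groups compared (log2 difference 0.01, 95% interval -0.37 to 0.38).

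The genes beside the deletions were also compared. BUD27, which encodes a prefoldin-like factor of translation initiation and lies 640 bases from EPL1, was at 3.88, 3.85 and 3.18 RPKM in the double-labelled libraries and at 5.03, 4.33 and 5.22 in the triple-labelled ones. Its groups did not overlap, but it missed the threshold (log2 difference 0.34, SE 0.15, adjusted p = 0.758). BUD27 was already above wild type in the double-labelled libraries (log2 difference 1.47, limma adjusted p = 4.5e-06), and by 1.81 in the triple-labelled ones (limma adjusted p = 7.7e-07). The triple-labelled libraries differed from those labelled epl1Δ sds3Δ by 0.09. BST1, the neighbour on the other side of EPL1, encodes an inositol deacylase of GPI anchors and had a log2 difference of 0.17 (SE 0.12, adjusted p = 0.795). Values for PUS7 and DGA1 beside ESA1 were -0.03 and 0.01, and those for KTR7 and CAB2 beside SDS3 were -0.16 and 0.02, none of them called. Against wild type, KTR7 differed by 2.22 in the double-labelled and 2.06 in the triple-labelled libraries on the log2 scale. CAB2 differed from wild type by -1.12 and -1.10, and these differences all had a limma adjusted p under 0.05. What the reads assigned to SDS3 come from was not tested. PUS7 encodes a pseudouridine synthase, DGA1 an acyltransferase of triacylglycerol synthesis, KTR7 a mannosyltransferase and CAB2 an enzyme of coenzyme A synthesis.

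ATG19 (YOL082W, chromosome XV, 168727 to 169974, plus strand) encodes the cargo receptor of the cytoplasm-to-vacuole targeting pathway, a selective form of autophagy that brings aminopeptidase I and alpha-mannosidase to the vacuole in growing cells. Its level was 31.6, 31.1 and 33.2 RPKM in the double-labelled libraries and 13.3, 10.3 and 9.30 in the triple-labelled ones, with no overlap. The triple-labelled mean was 34.3% of the double-labelled one (log2 difference -1.47, SE 0.16, adjusted p = 0.0020). Wild type had 43.3, 39.2 and 60.0 RPKM, above every mutant library. Against wild type, the log2 difference was -0.54 (adjusted p = 0.013) for the double-labelled libraries and -2.01 (adjusted p = 6.6e-07) for the triple-labelled ones. In the libraries labelled epl1Δ sds3Δ, ATG19 was at 10.2, 11.6 and 8.30 RPKM. Those 3 values overlap the triple-labelled ones, and both groups that carry the label epl1Δ lie below both groups that do not.

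No other gene of the same pathway was called among those picked for comparison after the value of ATG19 was seen. APE1 encodes the aminopeptidase I cargo and stood at 50.03, 59.5 and 66.6 RPKM in the double-labelled libraries and at 47.4, 65.9 and 59.0 in the triple-labelled ones, with a log2 difference of -0.03 (95% interval -0.34 to 0.27). AMS1, the alpha-mannosidase cargo, differed by -0.01 (95% interval -0.26 to 0.24), and APE4, an aspartyl aminopeptidase carried by the same route, by -0.13 (95% interval -0.39 to 0.13). The scaffold gene ATG11 differed by 0.15 and the ubiquitin-like ATG8 by 0.21, neither called. ATG34, whose product is the receptor for alpha-mannosidase during starvation, is the left neighbour of ATG19 on the same strand, at a distance of 1774 bases. It had 6.93, 6.09 and 8.21 RPKM in the double-labelled libraries and 6.42, 6.41 and 7.74 in the triple-labelled ones (log2 difference -0.04, 95% interval -0.38 to 0.30). IRA2 on the other side, a GTPase-activating protein for Ras, differed by -0.12 (95% interval -0.35 to 0.11). Of the 23 genes in the list of autophagy and vacuole genes, ATG19 was the 1 called lower and none was called higher. The median log2 difference of the list was -0.02.

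Before ATG19, the window from 250 bases before to 50 after the start codon held 1 match to GGCGGC, the core of the site bound by the repressor Ume6, beginning at position -43, and 1 to AGGGG, the stress element of Msn2 and Msn4, beginning at -170. Both strands were searched, and 4.90% and 22.2% of the 5515 promoters held these motifs. Matches to CACGTG (Pho4 and Cbf1), TGACTC (Gcn4), TTACTAA (Yap1), GAANNTTC (heat shock factor) and the Leu3 motif were not found in that window. In the 500-base window, ATG19 also held 1 TTACTAA match, beginning at -437, and 12.8% of promoters held that motif there.

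**Figure D1:**
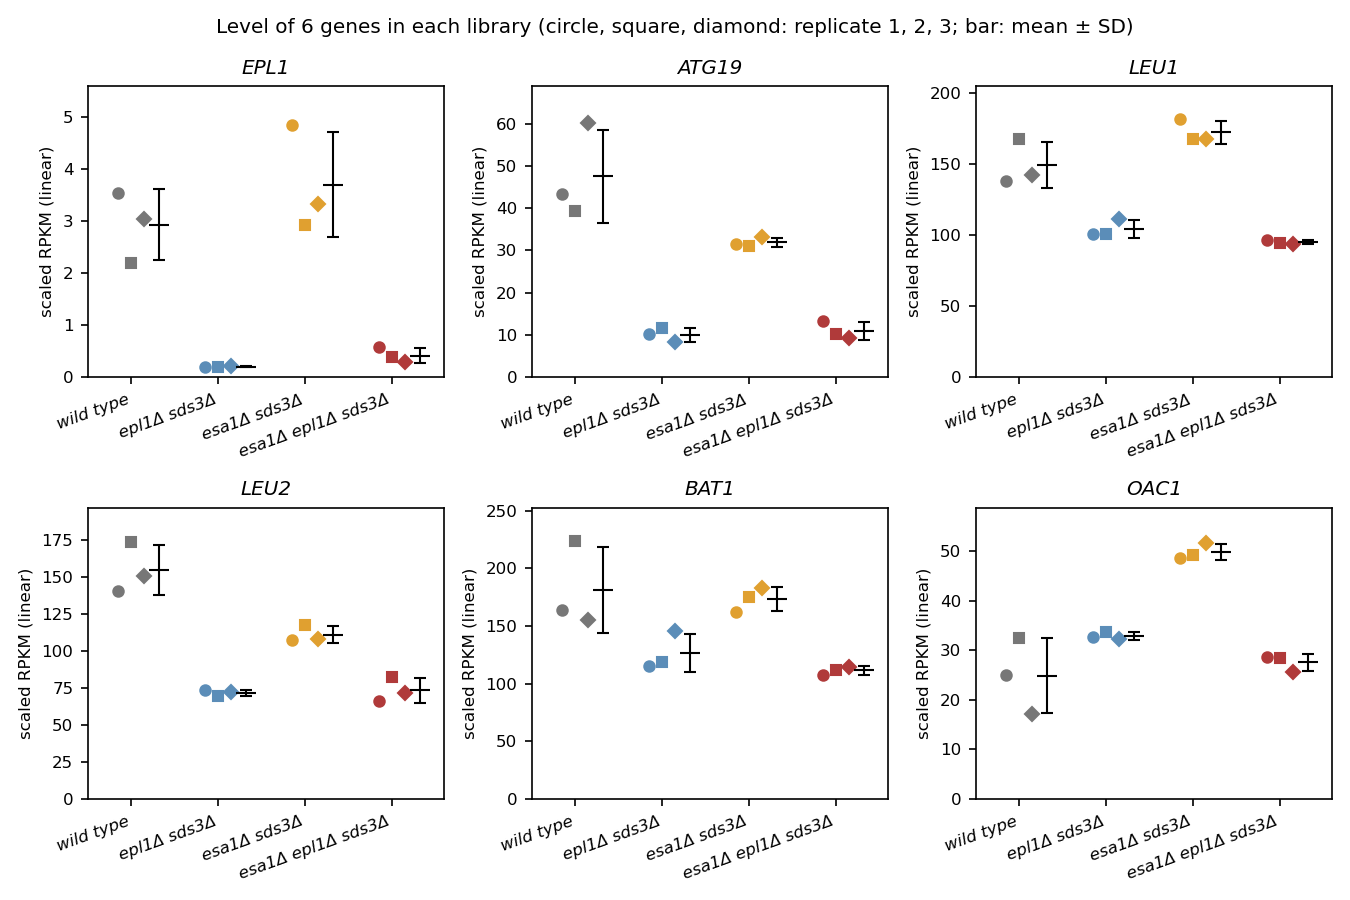
Scaled RPKM (linear axis from 0) of EPL1, ATG19, LEU1, LEU2, BAT1 and OAC1 in each of the 12 libraries, with circles, squares and diamonds for replicates 1, 2 and 3 and the mean ± SD of each group in black. In all 6 panels the triple-labelled libraries lie below the double-labelled ones, for example 93.6 to 96.6 against 168 to 182 RPKM for LEU1.

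LEU1 (YGL009C, chromosome VII, 476313 to 478652, minus strand) encodes the enzyme of the second step that is specific to leucine. Its level was 182, 168 and 168 RPKM in the double-labelled libraries and 96.6, 94.8 and 93.6 in the triple-labelled ones. The spread within each group was small beside the gap between the groups, and the triple-labelled mean was 55.1% of the double-labelled one (log2 difference -0.85, SE 0.09, adjusted p = 0.0020). At wild type the level was 138, 168 and 142 RPKM. The double-labelled libraries did not pass the test against wild type (log2 difference 0.21, adjusted p = 0.069), whereas the triple-labelled ones were lower (log2 difference -0.64, adjusted p = 7.7e-05). Libraries labelled epl1Δ sds3Δ had 101, 101 and 112 RPKM. The neighbours MPO1, a dioxygenase gene, and PMA1, the gene of the plasma membrane proton pump, differed by 0.01 (95% interval -0.31 to 0.33) and -0.26 (95% interval -0.58 to 0.06).

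Leucine, isoleucine and valine, the branched-chain amino acids, share several enzymes of their synthesis. All 11 branched-chain genes had a lower mean in the triple-labelled libraries. Of the 11, 10 did not overlap between the groups and 7 had an unadjusted p under 0.05, but LEU1 was the only 1 called. Over all 5956 features tested, 20.3% did not overlap between the groups, 3011 were below 0, and 183 were lower at an unadjusted p under 0.05. Of the 648 protein-coding genes from 100 to 1000 RPKM, the range of most of the 11, 536 were below 0 with a median of -0.11. The median log2 difference of the 11 was -0.33, against -0.09 for the other 50 genes of the amino acid list and -0.002 for all features. This subset was set apart after the values were seen, so the contrast is a description and has no test.

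LEU2, which encodes isopropylmalate dehydrogenase, the step after Leu1, had 107, 118 and 108 RPKM in the double-labelled libraries and 65.8, 82.3 and 71.6 in the triple-labelled ones. The groups did not overlap, and the log2 difference of -0.60 (SE 0.11) had an adjusted p of 0.127. LEU2 is a mutant allele in the wild-type label, and the labels of the mutants name the W303 background without its alleles. BAT2, the cytosolic branched-chain aminotransferase, went from 30.5, 34.8 and 37.3 RPKM to 23.6, 17.1 and 21.2 (log2 difference -0.71, SE 0.13, adjusted p = 0.163). For BAT1, the mitochondrial counterpart, the values were 162, 175 and 183 RPKM against 108, 112 and 115 (log2 difference -0.63, SE 0.14, adjusted p = 0.351).

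ILV3, which encodes the dihydroxyacid dehydratase of all 3 pathways, was at 253, 262 and 273 RPKM in the double-labelled libraries and at 178, 178 and 185 in the triple-labelled ones (log2 difference -0.54, SE 0.13, adjusted p = 0.535). Smaller differences were measured for LEU9 and LEU4, the isopropylmalate synthases, at -0.33 and -0.30 on the log2 scale. The acetohydroxyacid synthase gene ILV2 and its regulatory partner ILV6 differed by -0.28 and -0.12, the reductoisomerase gene ILV5 by -0.30 and the threonine deaminase gene ILV1 by -0.21. ILV6 was the member of the 11 whose groups overlapped.

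Genes outside the pathway that Leu3 is known to regulate were compared too. OAC1, a mitochondrial carrier that exports isopropylmalate, stood at 48.6, 49.2 and 51.8 RPKM in the double-labelled libraries and at 28.8, 28.5 and 25.7 in the triple-labelled ones, which is 55.4% of the double-labelled mean. Its log2 difference of -0.83 (SE 0.16) had an adjusted p of 0.220. The branched-chain amino acid permease BAP2 and the glutamate dehydrogenase GDH1 differed by -0.34 (SE 0.14) and -0.35 (SE 0.12), both with an adjusted p of 0.758 and no overlap between the groups. The malic enzyme MAE1 differed by -0.14 (SE 0.21). LEU3 itself went the other way, from 8.99, 8.02 and 7.92 RPKM to 10.2, 9.86 and 8.997 (log2 difference 0.20, SE 0.10, adjusted p = 0.769).

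Among all 17 tested genes with the CCGGNNCCGG motif in the 500-base window, 12 had a lower mean in the triple-labelled libraries and 1 was called, with a median log2 difference of -0.26. The 7 leucine-linked genes among them are those printed above, from -0.85 for LEU1 to -0.28 for ILV2. The leucine-linked genes without the motif ranged from -0.83 for OAC1 to -0.12 for ILV6, with BAT2 at -0.71 and ILV3 at -0.54. The other 10 of the 17 genes with the motif ranged from -0.47 for FSF1, a mitochondrial carrier gene, to 0.19 for AAN1, with 5 below 0 and a median of -0.02. Gcn4 is the general activator of amino acid synthesis genes, and its core TGACTC was found within 500 bases of 11 of the 15 leucine-linked genes, against 14.8% of all promoters. The branched-chain genes among the 15 belong to the list of amino acid synthesis under Gcn4. That share is thus in part set by how the genes were picked.

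**Figure D2:**
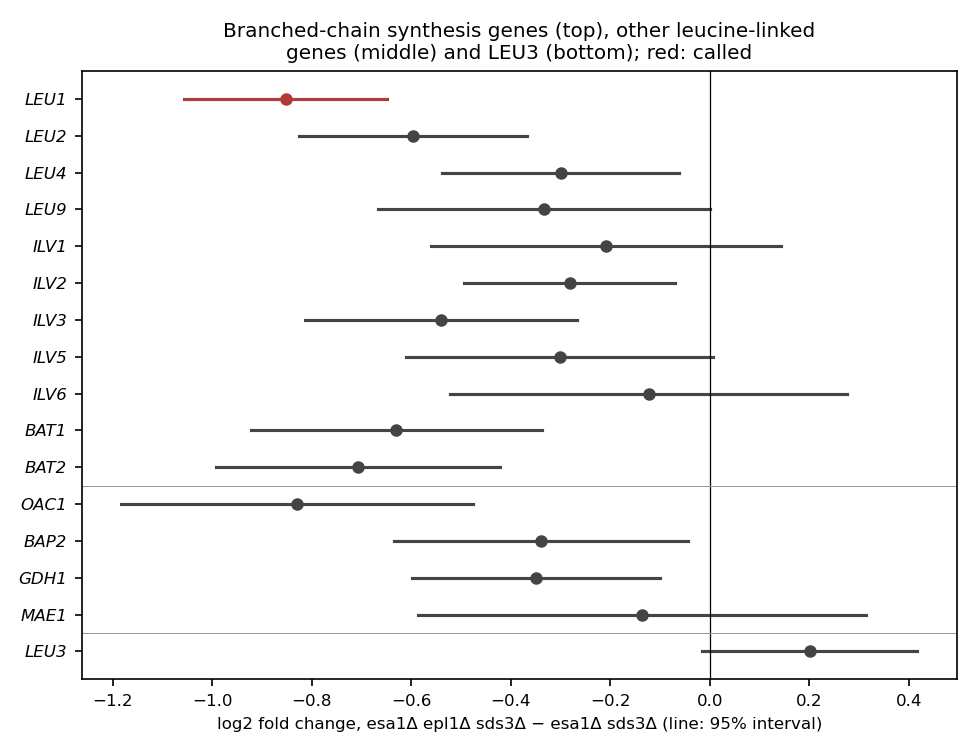
Log2 difference (triple-labelled minus double-labelled, log2(RPKM + 1) scale) with its 95% interval for the 11 branched-chain synthesis genes, 4 other leucine-linked genes and LEU3, with called genes in red. LEU1 at -0.85 is the called gene, and LEU3 at 0.20 is the gene above 0.

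The same genes were read in the comparisons that share these libraries. Between the libraries labelled epl1Δ sds3Δ and those labelled esa1Δ sds3Δ, 11 features or 0.185% were called, 4 higher and 7 lower in the former, and this difference is that between adding EPL1 loss and adding ESA1 loss. ATG19 (-1.59), LEU1 (-0.72), LEU2 (-0.62) and YSA1 (-0.57), an ADP-ribose diphosphatase gene, were among the 7. YSA1 had 106, 113 and 110 RPKM in the double-labelled libraries and 78.7, 87.0 and 85.2 in the triple-labelled ones, where it was not called (log2 difference -0.39, adjusted p = 0.535). Between the triple-labelled libraries and those labelled epl1Δ sds3Δ, 8 features or 0.134% were called, 2 higher and 6 lower in the former, and neither ATG19 nor any branched-chain gene was among them. The 8 were HIS3, ESA1, TPO1, YMR315W, YBR137W, APD1, YHK8 and AQY3. Over the 11 branched-chain genes, the libraries labelled epl1Δ sds3Δ lay between the other groups at the median. The median log2 difference from them was 0.12 for the double-labelled and -0.20 for the triple-labelled libraries, as a description without a test.

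None of the 8 features called against the libraries labelled epl1Δ sds3Δ was called between the triple-labelled and the double-labelled libraries. YHK8, a transporter gene, had 14.96, 14.2 and 14.5 RPKM in the libraries labelled epl1Δ sds3Δ, at most 0.397 in the double-labelled and at most 0.560 in the triple-labelled ones. APD1, AQY3 and YBR137W had log2 differences of -0.05, -0.02 and -0.09 between the triple-labelled and the double-labelled libraries. Against wild type, 3554 features (59.7%) were called in the double-labelled and 3539 (59.4%) in the triple-labelled libraries, and these comparisons share their wild-type libraries.

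The absence of calls was read against the precision of the data. The 95% interval of the log2 difference lay within 2-fold in either direction for 5704 features (95.8%) and within 1.5-fold for 4868 (81.7%). For the 3834 features with at least 10 RPKM, these shares were 99.0% and 90.1%. The intervals are on the log2(RPKM + 1) scale, where the pseudocount shrinks the differences of features at low RPKM. The shares over all features are therefore in part set by the pseudocount and are a weaker guide to precision. Pairs of libraries in the same group correlated at r = 0.990 to 0.992 over features, and pairs from different groups at 0.989 to 0.993, given here as a description. Depth behind the RPKM values was 8897111 to 8917129 reads in the double-labelled libraries and 9046732, 8378148 and 14527280 reads in triple-labelled replicates 1, 2 and 3. Reads recovered from the RPKM summed over features to more, 9225088 to 9261770 in the double-labelled libraries. In triple-labelled replicates 1, 2 and 3 these sums were 9409147, 8699505 and 15091534, and the shares of reads given below are of such sums.

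A difference of at least 2-fold was measured for 19 features, 6 higher and 13 lower, and 2 of these were called. Of the 19, 14 were tRNA genes and 17 had under 10 RPKM. The largest was tP(UGG)F, a proline tRNA, at 0, 0 and 1.70 RPKM in the double-labelled and 4.60, 3.34 and 5.01 in the triple-labelled libraries (log2 difference 1.92, SE 0.54, adjusted p = 0.758). Near-identical tRNA copies share reads, so these values are uncertain.

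**Figure D3:**
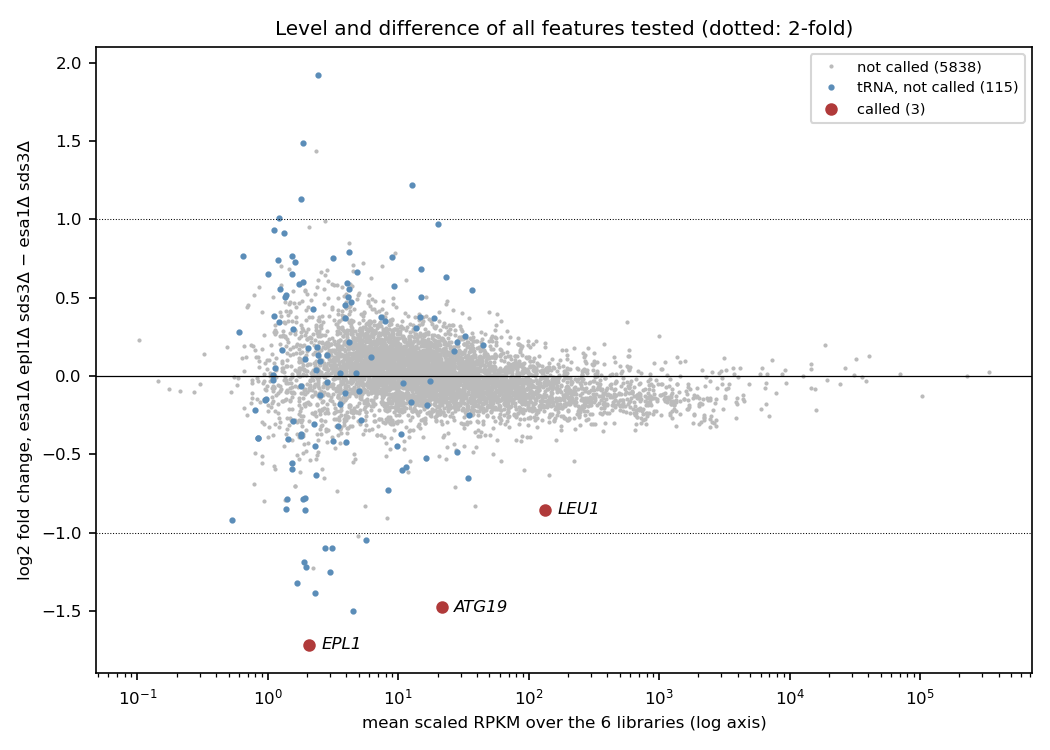
Log2 difference (triple-labelled minus double-labelled) against the mean scaled RPKM over the 6 libraries (log axis) for all 5956 features, with tRNA genes in blue and the 3 called genes in red. EPL1, ATG19 and LEU1 lie below the cloud, and the widest scatter is at low RPKM and in tRNA genes.

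Small differences followed the level of a gene. The median log2 difference of protein-coding genes was 0.06 under 10 RPKM (1949 genes), -0.01 from 10 to 100 (2814 genes), -0.11 from 100 to 1000 (648 genes) and -0.15 from 1000 RPKM up (121 genes). With quantile normalization, the same medians were 0.011, 0.0010, -0.0079 and -0.026. The share of reads in protein-coding genes was 53.9% ± 0.59 (SD, n = 3) in the double-labelled libraries and 52.0% ± 1.00 in the triple-labelled ones, with an exact permutation p of 0.1, the smallest that 3 against 3 allows. Its part in the medians of gene lists was not tested.

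In the 50 gene lists, 3 held a called member and 47 held none. The medians ran from -0.16 to 0.46, and 1 list lay beyond 0.2 in either direction. All features had a median of -0.002 with quartiles at -0.11 and 0.11. Quantile normalization turned the sign of some list medians. It gave 0.020 for translation factors, 0.043 for general stress, 0.045 for inositol and phospholipid, 0.030 for biotin and NAD, 0.016 for phosphate starvation, 0.011 for pyrimidine synthesis and 0.0036 for autophagy and vacuole genes. The snoRNAs stood at 0.065, glucose-repressed genes at -0.0040 and nuclear tRNAs at -0.013, and the turned medians of the tricarboxylic acid cycle and respiratory chain lists stand with those lists. Medians that kept their sign moved to -0.020 for histones, -0.017 for cell wall, -0.038 for ergosterol, -0.049 for amino acid synthesis, -0.077 for zinc and -0.00056 for heat shock genes.

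Chromatin lists came first. Of the 13 NuA4 subunit genes, EPL1 fell and no other was called. The next lowest was ESA1 (-0.08), and the highest were EAF7 (0.55, from 1.70, 1.29 and 1.15 to 2.25, 2.64 and 2.54 RPKM, adjusted p = 0.758) and YAF9 (0.29), a subunit shared with the SWR1 remodeller. None of 12 Rpd3L genes, 10 SWR1 genes, 15 other acetyltransferase genes, 11 histone genes or 15 silencing and telomere genes was called. Their medians were 0.03, 0.06, 0.10, -0.14 and 0.09. The members with the smallest p were ASH1 (0.23), a repressor of HO found with Rpd3L, RVB1 (0.19), an ATPase of SWR1 and INO80, YNG1 (0.46), of the NuA3 acetyltransferase, HTA2 (-0.27), a histone H2A gene, and SIR2 (-0.37), the silencing deacetylase. RCO1, a subunit of the Rpd3S deacetylase, had the smallest p among features higher in the triple-labelled libraries and was at 3.40, 3.27 and 2.92 RPKM in the double-labelled and 4.41, 4.98 and 4.67 in the triple-labelled ones without passing the test (log2 difference 0.44, adjusted p = 0.650).

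Growth and translation lists held no call. The 138 cytosolic ribosomal protein genes had a median of -0.14, with 131 of 138 below 0, and RPP1B, an acidic stalk protein of the large subunit, had the smallest p (-0.30). Their median was -0.02 with quantile normalization. The 83 ribosome biogenesis genes had a median of 0.06, where RIO1, a kinase of small subunit maturation, was at 0.28. The 16 RNA polymerase I genes had a median of 0.02 with RRN5, of its upstream activating factor, at -0.43, and the 26 translation factor genes -0.06 with GCN2, the kinase that senses uncharged tRNA, at 0.22. For 70 mitochondrial ribosomal protein genes the median was 0.03 and IMG2 was at 0.33, and for 34 proteasome genes it was 0.04 with the lid deubiquitinase RPN11 at 0.29.

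LEU1 was the 1 call in the metabolic lists. The 27 genes of glycolysis and fermentation had the lowest median, -0.16 (-0.08 with quantile normalization), and 26 of 27 were below 0, with ALD5, an aldehyde dehydrogenase, at -0.24. Medians were -0.08 for 24 genes of the tricarboxylic acid cycle (LSC1, succinyl-CoA ligase, -0.19) and -0.07 for 36 genes of the respiratory chain and ATP synthase (COX8, -0.20), and both turned positive with quantile normalization (0.0031 and 0.013). Amino acid synthesis under Gcn4 had a median of -0.12 over 61 genes, with 50 below 0, 11 lower at an unadjusted p under 0.05 and LEU1 as its single call. Within it, the 7 lysine genes stood next after the branched-chain genes, at a median of -0.23 with LYS1 at -0.41, and the 7 histidine and 8 arginine genes were at 0.02 and -0.06. Sulfur and methionine genes (29) were at 0.01 with the ATP sulfurylase MET3 at 0.32, and nitrogen use genes (34) at -0.13 with DIP5, a dicarboxylic amino acid permease, at -0.50.

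Purine and GMP genes (21) had a median of 0.02, and ADE2, another mutant allele in the wild-type label, was at 0.39. Pyrimidine genes (13) were at -0.04 with the salvage enzyme FUR1 at -0.29. The medians for inositol and phospholipid (23), ergosterol (29), thiamine and vitamin B6 (17), biotin and NAD (17) and arginine, polyamine and urea genes (10) were -0.04, -0.11, -0.09, -0.0037 and -0.09. Their members with the smallest p were INO4 (0.31), a subunit of the inositol activator, HMG2 (-0.21), an HMG-CoA reductase, PHO3 (-0.45), a thiamine-repressed acid phosphatase, BNA5 (-0.34), a kynureninase, and SPE2 (-0.18), S-adenosylmethionine decarboxylase.

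Nutrient and metal lists held no call either. Phosphate starvation genes (27) had a median of -0.01, with GDE1, a glycerophosphocholine phosphodiesterase, at 0.33. Zinc genes (19) were at -0.14 and iron uptake genes (26) also at -0.14, and in both the vacuolar cobalt and zinc transporter COT1 had the smallest p (-0.36). The 6 copper and 4 galactose genes were at -0.04 and -0.09. Hexose transport genes (13) were at 0.02 with HXT1 at -0.25, glucose-repressed genes (26) at 0.01 with ATO3 at 0.27, and export genes (22) at -0.06 with the polyamine exporter TPO1 at -0.29.

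Stress, wall and cell cycle lists were similar. General stress genes (52) had a median of -0.02, heat shock genes (30) -0.08 and oxidative stress genes (26) -0.06, with NCA3 (-0.39), HSF1 (0.37), the heat shock factor, and TRR1 (-0.25), thioredoxin reductase, having the smallest p in each. Mannoprotein genes (25) were at -0.06 with TIP1 at -0.45, and cell wall genes (34) at -0.11 with NCA3 again. Cyclins and cell cycle genes (30) had a median of 0.12, with 26 of 30 above 0 and ASH1 having the smallest p. That median was 0.07 with quantile normalization and 0.05 to 0.15 without 1 library. Over all 5956 features, 2945 were above 0, and of the 1949 protein-coding genes under 10 RPKM 1283 were. DNA damage genes (23) were at -0.08.

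Meiotic, sporulation and mating lists held no call. Early meiotic genes (25 tested of 32) had a median of 0.09, and HED1, a meiotic regulator of recombination, was at 4.21, 4.34 and 5.52 RPKM in the double-labelled and 7.90, 7.39 and 7.96 in the triple-labelled libraries (log2 difference 0.63, SE 0.16, adjusted p = 0.650). Middle and late sporulation genes (18 tested of 31) had a median of 0.04. SPS100, a spore wall gene, was at 22.8, 26.6 and 23.9 RPKM in the double-labelled and 17.8, 16.2 and 16.5 in the triple-labelled libraries, against 1.996 to 2.80 in wild type (log2 difference between the mutants -0.51, SE 0.11, adjusted p = 0.351). Mating and pheromone genes (26) were at 0.01, with MF(ALPHA)2, a gene of the alpha pheromone, at -0.43.

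Of the other genes with small p-values, KEG1, of beta-1,6-glucan synthesis, differed by -0.41 (adjusted p = 0.527), MIC10, of the mitochondrial cristae complex, by -0.41 (adjusted p = 0.650) and TCO89, a subunit of the TORC1 kinase complex, by 0.45 (adjusted p = 0.661).

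Non-coding RNA and chromosome position were compared last. The 79 snoRNAs had a median of -0.0047, with snR78 at -0.54, and the 13 spliceosomal and other stable RNAs 0.05, with the U2 RNA LSR1 at 0.20. The 103 nuclear tRNAs had a median of 0.02 with quartiles at -0.42 and 0.46. The 12 mitochondrial tRNAs formed the list beyond 0.2, at a median of 0.46 with 9 of 12 above 0. In that list tS(GCU)Q1, a serine tRNA, was at 28.0, 28.8 and 29.9 RPKM in the double-labelled and 50.1, 51.8 and 30.2 in the triple-labelled libraries (log2 difference 0.55, adjusted p = 0.758). Triple-labelled replicate 3 lay close to the double-labelled ones, and the median of the list was 0.25 and 0.20 without double-labelled replicate 2 or 3 and 0.29 without triple-labelled replicate 1. Mitochondrial tRNAs took 0.00132% of the reads in the double-labelled and 0.00178% in the triple-labelled libraries (exact permutation p = 0.1, the smallest possible). The 17 features in the list of mitochondrial genome genes had a median of 0.08, and COX1, a subunit of cytochrome c oxidase, was at -0.24.

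The 16 nuclear chromosomes had medians from -0.04 for chromosome III to 0.02 for chromosome XI. Features within 20 kb of a chromosome end (122) had a median of -0.04 with none called, and the 21 COS and PAU genes of subtelomeric families had a median of -0.11 with COS2 at -0.43. COS and PAU copies are near identical, so their single values are uncertain.

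**Figure D4:**
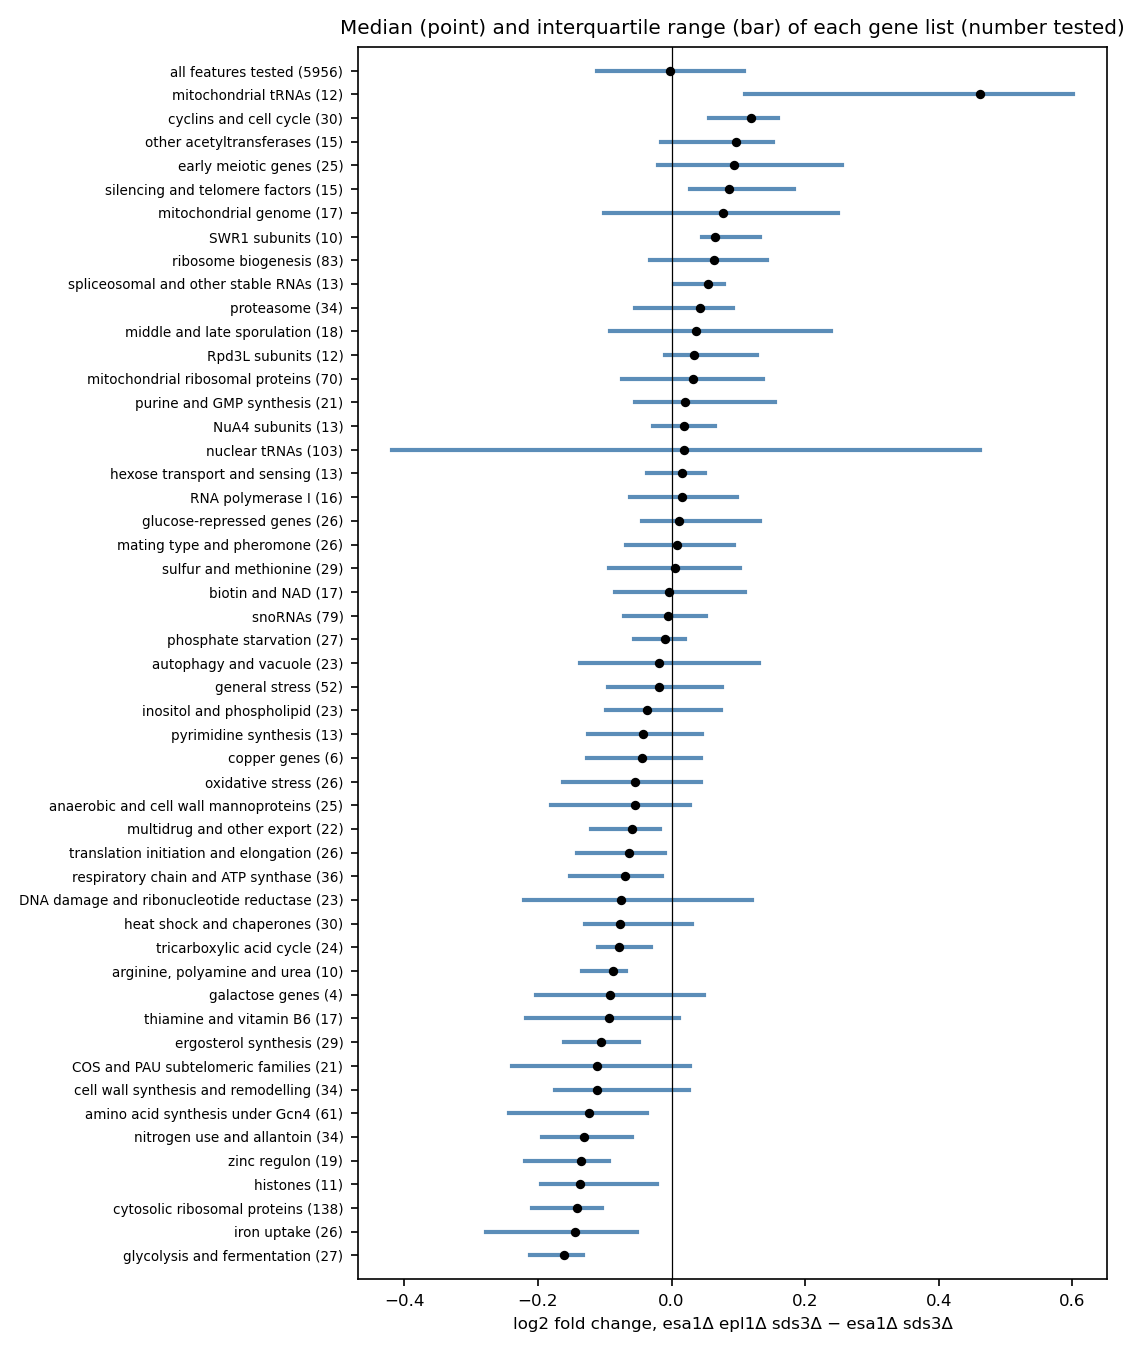
Median (point) and interquartile range (bar) of the log2 difference (triple-labelled minus double-labelled) in each of the 50 gene lists, with the number tested in brackets and all features at the top. All medians but that of the mitochondrial tRNAs (0.46) lie between -0.16 and 0.12.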

How the data were processed

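Strand-specific libraries of rRNA-depleted total RNA were made from 12 cultures in 4 groups of 3, per the labels' protocols. The deposited values were RPKM per feature, made by the authors with 1 file per library. The tools cutadapt, Bowtie 0.12.2 and STAR and the builds sacCer3 and mm8 are listed in the submitters' processing notes, and the counting program and its strand setting are not given in the sources used here, so overlapping and antisense genes are uncertain. Names and positions came from the R64 RefSeq genome, the assembly of sacCer3, which matched 6048 features by locus tag and 114 by name.

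Median-of-ratios factors scaled the libraries (0.907 to 1.21). Those averaging 1 RPKM or more were tested with limma 3.58.1 in R 4.3.3 on log2(scaled RPKM + 1), with all 12 libraries, 1 mean per group, a mean-variance trend and Benjamini-Hochberg adjustment. A pseudocount of 1 understates changes of low genes. Whole reads could be recovered from the RPKM steps for at least 99.7% of values under 5000 reads (within 0.01 read) and served an alternative fit with voom. The 14 rRNA features were at 0 and left out. The limma steps were tested on simulated data.

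The members and lists were chosen with earlier results of these data known. Named were the deleted genes, their neighbours and HIS3, up to 15 called genes per direction with at least 10 RPKM and no overlap (any level if fewer than 10 passed), and for each list up to 4 called members or, in lists of 10 or more without one, that with the smallest p. Genes of leucine synthesis and of the ATG19 pathway, the Leu3 motif and the 500-base window were added after the values were seen, as were the genes with the next smallest p. The gene that this rule names for 1 list is not reported here. Intervals cover the spread between libraries of a group, shared over all 4 groups.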

Additional observations from a re-analysis of the deposited data

How the results depend on the processing

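With 16 alternatives, the count of called features was 3 with a pseudocount of 0.1 or 5, RPKM as deposited, quantile normalization, no mean-variance trend, the replicate block and without any 1 of the 6 libraries. It was 2 with a minimum mean of 10 RPKM, which leaves EPL1 out, and 4 with no filter on low values, where 1 feature was higher. It was 6, all lower, when only the 6 libraries were fitted (ILV3, BAT1 and OAC1 were added) and 5, all lower, with voom on recovered reads (LEU2 and BAT2 were added). In the limma fit of the 6 libraries, the adjusted p was 0.017 for ILV3 and BAT1 and 0.0042 for OAC1. The SE of OAC1 was 0.07 there and 0.16 in the main fit. Its SD was 7.65 RPKM in wild type, 1.69 in the double-labelled and 1.72 in the triple-labelled libraries. EPL1 was -2.89 with a pseudocount of 0.1, -0.68 with a pseudocount of 5 and -3.18 with voom. Without 1 library, EPL1 ranged from -1.84 to -1.55, ATG19 from -1.61 to -1.37 and LEU1 from -0.87 to -0.81, all with an adjusted p under 0.05, the highest being 0.048 for EPL1. All 11 branched-chain genes stayed below 0 in every alternative but the one without double-labelled replicate 3, in which 10 did, and their median ranged from -0.39 to -0.28. The replicate numbers correlated between the groups at 0.111, 0.0778 and 0.155, and libraries of unlike number at -0.132 to 0.0203. Each library thus correlated best with its own number. No label ties a number to a day or batch, so the numbers were not taken as pairs in the main fit. The replicate block gave 3 calls.

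Of 85 named genes, 10 with values near 0 changed sign at least once, and none of these was called. With quantile normalization the log2 difference was -0.056 for SDS3, -0.0030 for DGA1, -0.010 for CAB2, 0.0035 for APE1 and 0.041 for AMS1. With voom on recovered reads it was -0.0094 for SDS3. With RPKM as deposited it was 0.018 for PUS7, 0.0071 for ATG34, 0.015 for APE1 and 0.037 for AMS1. Without 1 library the range was -0.20 to 0.21 for SDS3, -0.011 to 0.10 for HIS3, -0.10 to 0.039 for PUS7, -0.034 to 0.032 for DGA1 and -0.026 to 0.081 for CAB2. It was -0.034 to 0.055 for MPO1, -0.13 to 0.063 for ATG34, -0.27 to 0.028 for ILV6, -0.14 to 0.096 for APE1 and -0.057 to 0.042 for AMS1.

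The medians of 28 of the 50 lists kept their sign in all alternatives, and RPKM as deposited moved the median of all features from -0.002 to 0.04. The triple-labelled share of reads relative to the double-labelled one was 1.02 for snoRNAs and 1.05 for SCR1, and 1.06 and 1.09 with protein-coding reads as the denominator. The shares of all reads overlapped between the groups, with an exact permutation p of 0.5 for snoRNAs and 0.4 for SCR1. The ratios over protein-coding reads and their cause were not tested. Counts below about 10 reads limit single tRNA genes, ESA1 and EPL1 in the deleted strains.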
